A study of Mus musculus with 3 samples.

Results

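Mast cell progenitors (MCps) from wild type (WT) mice were profiled after growth in stem cell factor (SCF), the ligand of the receptor KIT. The profile rests on the WT channel (Cy3, green) of 3 dual-color arrays, which held 3 of the 6 RNA samples in the series. The profile was taken from this channel alone, and the ratio to the other channel was not used. The 3 other samples were MCps from mice lacking p85α, a regulatory subunit of class IA PI3 kinase, and their channel (Cy5, red) serves below only as a reference for how closely ranks agree.

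Low density mononuclear marrow cells of 3 independent WT mice were grown in IL-3 (10 ng/mL) for 7 days. Cells positive for KIT and for the IgE receptor were sorted and then given SCF at 100 ng/mL for 48 hours. Strain and age were not given in the sources used here. Each culture yielded few cells, so its cDNA was amplified by a global PCR before 250 ng was labeled.

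Mast cells arise from marrow progenitors and complete their maturation in tissues. They carry KIT and the high affinity IgE receptor, which is built from an α chain (Fcer1a), a β chain (Ms4a2) and γ chains (Fcer1g). Their granules store proteases such as chymases, tryptases and carboxypeptidase A3 (Cpa3), together with histamine, on the proteoglycan serglycin. GATA2 is a transcription factor needed for the mast cell lineage.

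Each probe was given a percentile of brightness within its array, where 100 is the brightest probe. A probe was called well above background when the scanner software flagged its spots so. Percentiles depend on how well each probe hybridizes and labels, so a higher percentile of 1 gene over another is not a larger amount of its RNA. In cultured cells measured in bulk, fewer cells of a type and less RNA per cell cannot be told apart.

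Most probes were well above background. The share was 71.7% in culture 1, 69.0% in culture 2 and 85.1% in culture 3 of 41174 probes. The same 3 arrays had median background-subtracted signals of 41.7, 36.1 and 106 over local backgrounds near 33. Culture 3 thus had the most signal over background and the most calls. In all 3 cultures 63.2% of probes passed (26012 probes), and 11.5% passed in none. By the brightest probe of each gene, 82.1% of 15521 RefSeq genes passed in every culture and 3.29% in none. Of 153 negative control spots, 0, 1 and 2 were well above background. The call alone therefore separates few genes from the rest, as the olfactory receptors showed. These genes serve the nose and stand here for genes not used in blood cells, yet 650 of 906 (71.7%) were well above background in every culture. Their median percentiles were 50.4, 55.0 and 54.0, against 65.1, 65.0 and 65.3 for RefSeq genes. A stricter mark was added after seeing the data, namely brighter than 95% of olfactory receptor genes of the same array. It lay at percentiles of 90.3, 91.1 and 92.0, and 6.62% of RefSeq genes passed it in every culture. Each gene was judged by its brightest probe, so a gene with several probes could pass while its others lay below the mark. Culture 2 shared the fewest of its brightest genes with the others, so values are given culture by culture. In the lists of genes, "called" means well above background in every culture.

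Of the 5 mast cell markers, 4 were well above background in every WT culture, beside 82.1% of RefSeq genes. Gata2 was the highest, at percentiles of 98.4, 94.2 and 94.1 in cultures 1, 2 and 3 (mean 95.6 ± 2.48, SD, n = 3). It was the only marker of the 5 to pass the olfactory mark in every culture. Its other probe lay at 94.1, 94.2 and 88.8. Both Gata2 probes map close together on chromosome 6 in the array's annotation, which names no build. Cpa3, the granule carboxypeptidase, followed at 95.5, 88.8 and 93.9 (mean 92.7 ± 3.50).

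The sorted surface receptors ranked lower. Fcer1a lay at 93.7, 70.1 and 72.7 (mean 78.8 ± 12.9), high in culture 1 and lower in both others. Kit lay at 86.6, 55.7 and 69.7 (mean 70.7 ± 15.5) with the same culture on top. In processed signal this was 7702, 490 and 2111 for Kit and 17869, 1075 and 2531 for Fcer1a. Kit in culture 2 stood below the median RefSeq gene of that array. Ms4a2, the β chain, was dim in every culture, at 25.4, 28.7 and 15.9 (mean 23.3 ± 6.67), and was well above background only in culture 3. The cells had been sorted for the IgE receptor on their surface, and the probes of its chains ranked far apart. Its γ chain gene Fcer1g, which other immune receptors also use, lay at 93.8, 98.5 and 97.9. The single probes for Kit, Fcer1a, Ms4a2 and Cpa3 lie at chr5:75074515-75074574, chr1:173194818-173194877, chr19:11297411-11297470 and chr3:19947691-19947750 in the array's annotation.

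**Figure D1:**
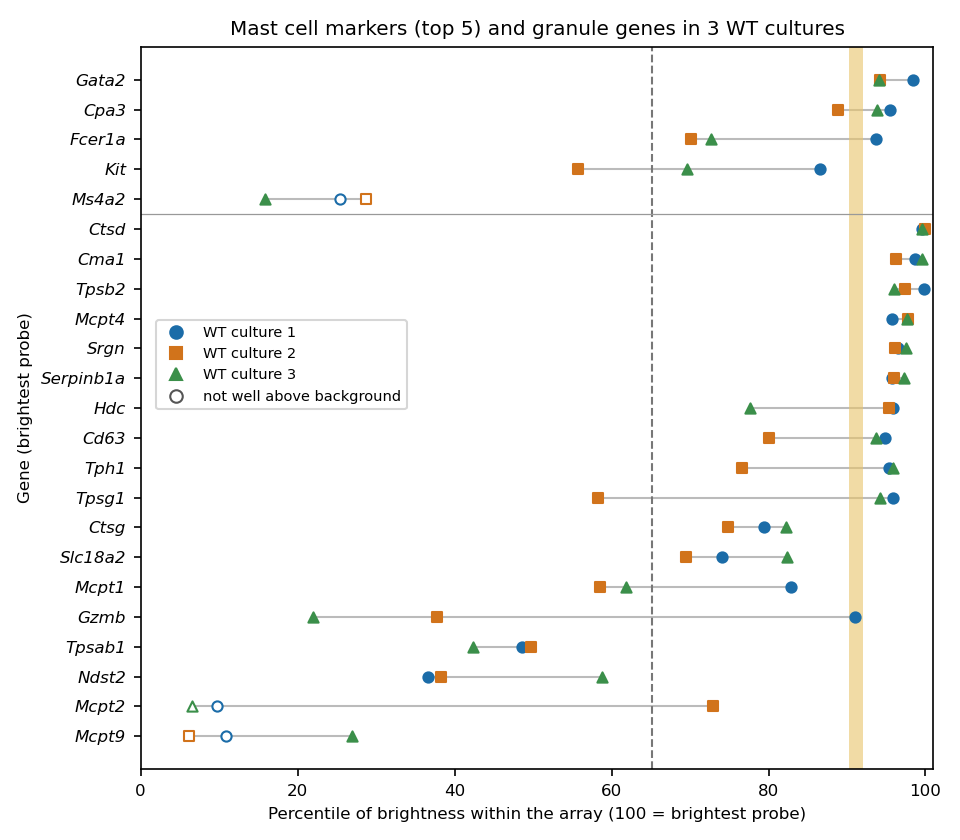
Percentile of brightness (x axis, 100 is the brightest probe of the array) of the 5 mast cell markers and 18 granule and storage genes (y axis, brightest probe of each) in 3 WT cultures. Open symbols were not well above background, the dashed line is the median RefSeq gene (65.1) and the band spans the marks above 95% of olfactory receptor genes (90.3 to 92.0). Gata2 and 6 granule genes lie above the band in every culture, and Ms4a2, Mcpt2 and Mcpt9 reach the open symbols.

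Genes of the secretory granule were among the brightest of the mast cell lists. Of 18, 16 were well above background in every culture (88.9%, beside 82.1% of RefSeq genes) and 6 passed the olfactory mark (33.3%, beside 6.62%). The median percentiles were 95.1, 75.8 and 88.1, above the median RefSeq gene in every culture. The 6 were Ctsd, Cma1, Tpsb2, Mcpt4, Srgn and Serpinb1a. Ctsd, a lysosomal protease found in many cells, was at 99.5, 99.99 and 99.6. The chymase Cma1 was at 98.6, 96.2 and 99.6, and the tryptase Tpsb2 at 99.8, 97.4 and 96.0. Mcpt4 is a chymase of connective tissue mast cells. It was at 95.7, 97.7 and 97.6. Srgn, which encodes serglycin, was at 96.5, 96.2 and 97.5. Percentiles near 100 leave little room to differ, and the processed signal of Tpsb2 was 256866, 21107 and 21732.

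Genes for amine synthesis and storage differed in rank. Hdc, which makes histamine, was at 95.8, 95.3 and 77.7. Tph1, which starts serotonin synthesis, was at 95.4, 76.7 and 95.8. The vesicle amine transporter Slc18a2 was at 74.0, 69.5 and 82.4. Each was well above background in every culture, but none passed the olfactory mark in all 3.

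The other proteases of the list differed in rank. Mcpt1 and Mcpt2 are typical of mucosal mast cells. Mcpt1 was at 82.8, 58.5 and 61.8, while Mcpt2 was at 9.70, 72.9 and 6.53 and well above background only in culture 2. Gzmb, a granzyme, was at 91.0, 37.7 and 21.9 and was well above background in all 3. Ctsg is also made by neutrophil precursors. It was at 79.4, 74.9 and 82.3. Mcpt9 was the dimmest of the list by its mean, at 10.8, 6.19 and 27.0. The tryptase Tpsab1 held a middle rank at 48.6, 49.7 and 42.4, far below the related Tpsb2, although a different probe reads each.

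All 17 genes of IgE receptor signalling were well above background in every culture, beside 82.1% of RefSeq genes, and 5 passed the olfactory mark (29.4%, beside 6.62%). Their median percentiles were 79.7, 74.0 and 85.8. Adaptors tie the receptor to enzymes inside the cell. The adaptor Lat was at 99.5, 98.4 and 98.8, and the related adaptor Lat2 at 97.4, 99.8 and 98.3. The lipid phosphatase SHIP1 (Inpp5d), a brake on PI3 kinase signals, was at 97.3, 97.5 and 96.9. The kinases that start the signal ranked lower. Syk was at 88.4, 73.3 and 91.8, Lyn at 67.3, 74.0 and 70.9, and Fyn, the dimmest of the list by its mean, at 37.2, 50.3 and 45.8. Btk moved with culture 2, at 95.5, 60.0 and 95.4.

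All 18 genes of KIT signalling were also well above background in every culture, beside 82.1% of RefSeq genes, but only Akt1 passed the olfactory mark. With every probe of a gene required, 11 of the 18 were, beside 64.2% of RefSeq genes. The median percentiles were 76.3, 73.9 and 69.6. Akt1, a kinase downstream of PI3 kinase, was at 95.3, 93.5 and 95.9. Pik3cd, the catalytic subunit p110δ found mainly in leukocytes, was at 94.3, 98.0 and 88.4, and Pik3cb (p110β) at 35.3, 88.1 and 56.8. The probes of these catalytic subunits thus ranked apart, most of all in culture 1. Mapk3 (ERK1), a kinase of the RAS pathway, was at 98.6, 86.5 and 98.2.

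Among 20 surface and cytokine receptors, 15 were well above background in every culture (75.0%, beside 82.1% of RefSeq genes), 2 in none by their brightest probe and 6 passed the olfactory mark (30.0%, beside 6.62%). Il3ra, the α chain of the receptor for the IL-3 used in the culture, was at 99.9, 99.6 and 98.9. Csf2ra was at 96.0, 94.2 and 97.9, and the shared β chain Csf2rb at 97.6, 85.6 and 84.8. The list also holds integrin chains. Of these, Itgb3 was at 99.96, 99.96 and 99.98, Itga4 at 96.9, 95.9 and 97.8 by 1 of its 6 probes (16.5 to 40.5 by the means of the others) and Itgb7 at 94.3, 91.5 and 96.0. The α4β7 pair is used by mast cell progenitors to home to the gut. Il1rl1, the IL-33 receptor, was at 95.4, 83.4 and 73.3. Mrgprb2, a receptor of connective tissue mast cells for cationic ligands, was at 24.7, 30.1 and 18.0 and well above background only in culture 3. None of the 4 probes of Il2ra was well above background in any culture.

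All 16 transcription factors were well above background in every culture, beside 82.1% of RefSeq genes, and 2 of them (12.5%, beside 6.62%), Lyl1 and Zfpm1, passed the olfactory mark. Lyl1 was at 97.4, 99.9 and 96.8. Zfpm1 (FOG1), a partner of GATA factors, ranged from 91.3 to 97.0. Tal1 was at 97.6, 87.4 and 91.6 and Runx1 at 92.4, 87.3 and 91.4. Other factors ranked lower. Mitf was at 75.3, 62.6 and 62.6, and Gata1 at 63.2, 64.3 and 55.8. Spi1 (PU.1) was at 56.7, 56.5 and 45.5.

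Mediators that mast cells make when activated ranked near the olfactory receptors. Of 15 cytokine and chemokine genes on the array, 10 were well above background in every culture (66.7%, beside 82.1% of RefSeq genes), with median percentiles of 56.9, 56.7 and 57.7. Ccl2 was the brightest by its mean, at 93.2, 93.9 and 96.0. Il13 was at 71.6, 78.3 and 71.8 and Tnf at 56.9, 64.0 and 75.7. Il5 was not well above background in any culture. Of 8 eicosanoid genes, 6 (75.0%) were well above background in every culture. Leukotriene and prostaglandin genes each spread widely. Of the leukotriene genes, Alox5ap (97.1, 96.7 and 91.0) and Alox5 (97.7, 86.1 and 95.5) led, with Ltc4s at 39.9, 56.5 and 52.3 and Lta4h, the dimmest of the list by its mean, at 48.7, 23.9 and 16.8. Of the prostaglandin genes, Ptgs1 was at 67.6, 71.1 and 82.1, the prostaglandin D2 synthase Hpgds at 31.3, 38.1 and 30.4 and Ptgs2 at 27.3, 39.2 and 27.6.

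Over the 8 mast cell lists together, 102 of 117 genes were well above background in every culture (87.2%, beside 82.1% of RefSeq genes). By their brightest probe 3 of the 117 were so in none, beside 3.29% of RefSeq genes. By the olfactory mark 22 of 117 (18.8%) passed in every culture, beside 6.62% of RefSeq genes. Over the 13 lists of other cell types and tissues, 121 of 146 genes were well above background in every culture (82.9%). This was near the 82.1% of RefSeq genes. Of the 146, 10 (6.85%) passed the olfactory mark. The median percentiles were 78.9, 73.3 and 77.7 for the mast cell lists and 64.4, 69.2 and 65.0 for the other lists. Single lists did not all follow these pooled medians. The cytokine and eicosanoid (56.9, 59.4 and 54.5) lists of the mast cell group lay below the median RefSeq gene in every culture, as did the stem and progenitor list and the monocyte and macrophage list of the other group, while its basophil list and its list of unrelated tissues (72.9, 79.8 and 71.3) lay above it. No test was made of these differences. The lists were chosen with earlier results of these data known and the olfactory mark was added after seeing the data, so the differences are descriptions only.

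**Figure D2:**
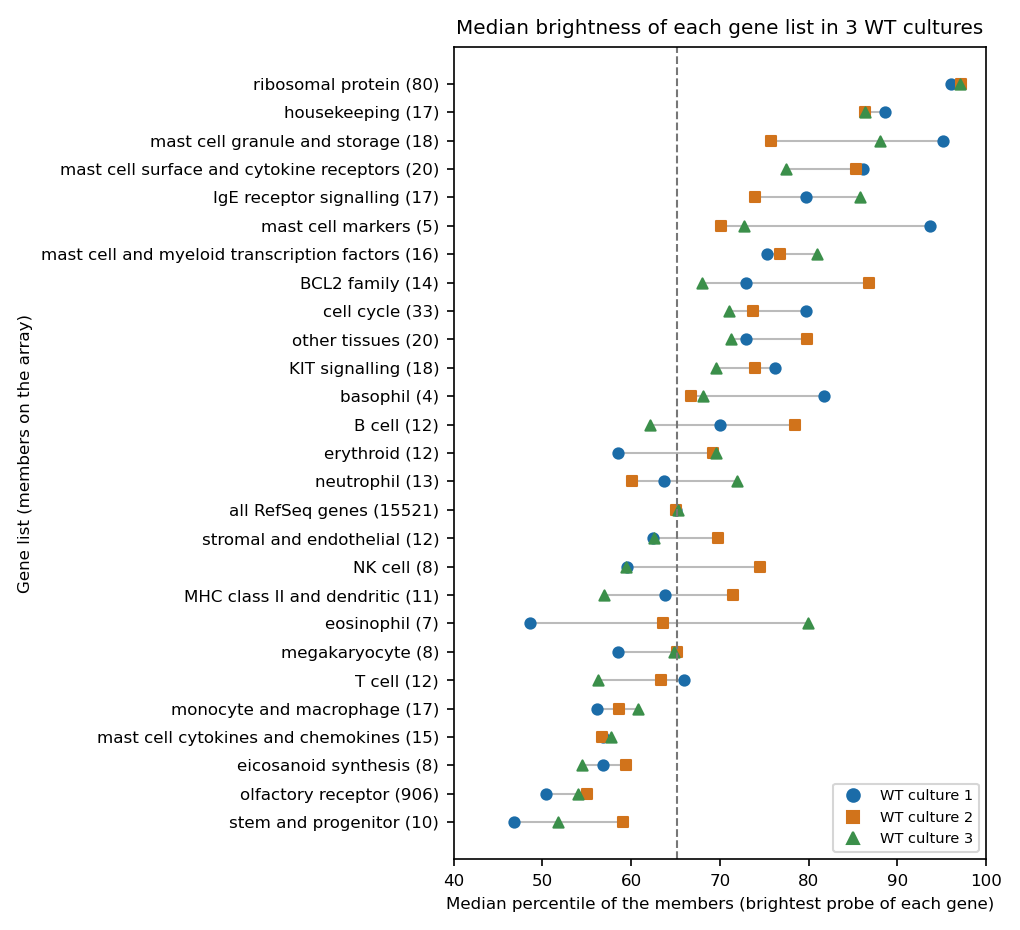
Median percentile of brightness (x axis) of each gene list (y axis, members on the array in brackets) in 3 WT cultures, with the dashed line at the median RefSeq gene (65.1). Ribosomal protein genes lie highest (96.1 to 97.2), granule genes lie between 75.8 and 95.1, and olfactory receptors lie between 50.4 and 55.0.

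Some genes of neighboring lineages stood out from their lists. Mpo, the peroxidase of neutrophil precursors, was at 97.7, 99.3 and 96.9, while the late neutrophil gene Lcn2 was not well above background in any culture. Other members of the list differed from Lcn2. Camp (88.1, 32.6 and 85.7) and S100a9 (86.6, 44.1 and 87.6) were well above background in every culture, and S100a8 in cultures 1 and 3. Of the 13 neutrophil genes, 11 were well above background in every culture, beside 82.1% of RefSeq genes, with medians of 63.7, 60.1 and 71.9. Prg3 of eosinophil granules was at 96.5, 97.3 and 95.9, and Siglecf at 27.9, 25.4 and 25.1 in a list with 5 of 7 called and medians of 48.6, 63.6 and 79.9. The basophil list had 3 of 4 called (75.0%), with medians of 81.8, 66.7 and 68.1. Its members differed in direction in culture 2. The basophil proteases Prss34 (84.2, 97.3 and 81.1) and Mcpt8 (86.6, 95.1 and 72.0) were highest there, and Cd200r3 (72.2, 38.3 and 64.1) and Itga2 (79.3, 17.5 and 59.9) lowest. Cd34, a progenitor surface gene that mast cells also carry, was at 98.6, 99.4 and 95.3. Its stem and progenitor list had 7 of 10 called (70.0%) and medians of 46.8, 59.1 and 51.8. The shares called of the eosinophil (71.4%), basophil and stem and progenitor lists all lay below the 82.1% of RefSeq genes. With every probe of a gene required, 4 of the 10 were called, beside 64.2% of RefSeq genes.

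Erythroid genes were called in 10 of 12 (83.3%) and megakaryocyte genes in 6 of 8 (75.0%), beside 82.1% of RefSeq genes. By mean percentile the erythroid list was led by a β-globin probe (Hbb-b1), at 97.0, 96.9 and 95.8. The other probes of Hbb-b1 had means of 25.3 to 81.8. The platelet chemokine genes Pf4, at 17.1, 28.9 and 29.7, and Ppbp, at 8.81, 7.07 and 33.5, were dim and well above background only in culture 3.

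The monocyte and macrophage list had 13 of 17 called (76.5%, beside 82.1% of RefSeq genes) and none past the olfactory mark (6.62% of RefSeq genes). Marco was its brightest by mean percentile, at 96.7, 88.2 and 91.1. Csf1r was at 61.3, 64.0 and 88.8, and Mrc1 was not well above background in any culture. In the MHC class II and dendritic list 9 of 11 were called (81.8%), with Siglech not well above background in any culture. H2-Ab1 was the brightest of that list by its mean, at 78.8, 80.8 and 86.7. The medians of both lists lay within 10 percentile points of the median RefSeq gene.

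T cell genes were called in 11 of 12 and B cell genes in 11 of 12, with NK cell genes in 6 of 8, beside 82.1% of RefSeq genes. With every probe of a gene required, these were 7, 7 and 5, beside 64.2% of RefSeq genes. Cd3e was at 65.9, 63.9 and 56.0. Klra8 was at 93.4, 96.0 and 95.6, whereas Klrk1 was not well above background in any culture. The NK cell list thus held bright and dim members. Stromal and endothelial genes were called in 10 of 12, and in 3 of 12 with every probe required. Acta2 was at 99.2, 96.6 and 99.0 by its brightest probe (12.9 to 69.8 by the means of the others) and Pdgfrb at 25.2, 23.5 and 17.5. Genes of unrelated tissues were called in 19 of 20. The neuronal gene Syn1 was at 98.1, 97.5 and 97.9 by its brightest probe (8.15 to 76.3 by the means of the others) and the insulin gene Ins2 at 93.1, 92.5 and 93.3. Liver albumin (Alb) was at 95.6, 98.2 and 49.9. Calls and high ranks thus also occurred for genes best known from other tissues, and the source of these signals was not tested.

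The ribosomal protein and housekeeping lists had medians above the median RefSeq gene in every culture. Of 80 ribosomal protein genes (paralogs and a binding protein included), 79 were well above background in every culture (98.8%, beside 82.1% of RefSeq genes) and 51 passed the olfactory mark (63.8%, beside 6.62%). Their medians were 96.1, 97.2 and 97.1. Housekeeping genes were called in 15 of 17 (88.2%) with medians of 88.6, 86.3 and 86.4, led by Actb at 99.9, 99.4 and 98.9. Hprt (38.9, 27.1 and 33.7) and Tfrc (13.7, 18.2 and 13.2) were dim, and Tfrc was not well above background in any culture.

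Cell cycle genes were called in 30 of 33 (90.9%, beside 82.1% of RefSeq genes) with medians of 79.7, 73.7 and 71.0. Birc5 (survivin), which acts in mitosis and in survival, led at 99.7, 99.9 and 98.5. Plk1 was at 98.6, 93.3 and 94.7 and Mki67 at 93.3, 96.4 and 95.1. These 3 passed the olfactory mark in every culture (9.09% of the list, beside 6.62% of RefSeq genes), but Cdk1 lay at 36.4, 41.6 and 27.1 and Aurkb at 14.5, 15.8 and 26.0. Of 14 BCL2 family genes 12 were called (85.7%), with medians of 73.0, 86.8 and 68.0. The survival gene Bcl2 was at 99.5, 99.0 and 99.2 and its relative Mcl1 at 97.5, 93.6 and 66.2. Their other probes were dimmer, with means of 30.7 to 46.2 for Bcl2 and 45.8 for Mcl1. Among the genes that promote death, Bak1 was at 96.5, 95.3 and 97.3 and Bcl2l11 (BIM), which SCF is known to restrain, at 70.0, 89.3 and 68.2.

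Of the mast cell lists, only Itgb3 was among the 25 brightest genes. Of the 25 genes or transcripts with the highest mean percentile, 8 had a brightest probe whose accession was found in the RefSeq table (GRCm38.p6). These were Dcaf12l2, Junb, Itgb3, Samd10, Mcts1, Zfp13, Mid1 and Lars2. The other 17 were cDNA clones, predicted transcripts, probes without a gene name (NAP055718-1, NAP108447-1, NAP052093-1, NAP030873-1, A_52_P980948, A_52_P981301, TC1440579, BE573237, BC012020, BC004015, 6330412F12Rik, LOC673433, NM_001013789 and ENSMUST00000082421) or gene names that the array's design ties to other accessions (Fgl1, Ptprz1 and Phxr5). Their lowest percentile in any culture was 99.6. Junb, an AP-1 factor induced by growth signals, was at 99.97, 99.96 and 99.998. ENSMUST00000082421 maps to the mitochondrial chromosome (M:15099-15158), and all 3 probes placed there were above the 99th percentile in every culture, with medians of 99.8, 99.9 and 99.8.

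Other probes of the same gene ranged from dim to bright. Of these 25, 8 had further probes. Dcaf12l2 had a mean percentile of 99.99 by its brightest probe and 4.97 by its other. Fgl1 had 21.3 by its other probe, Ptprz1 had 13.9 to 53.2 by its 3 others, Junb had 66.6 and Mid1 had 35.7 to 70.0. Others stayed high, with Itgb3 at 85.5, BC012020 at 99.7 and NM_001013789 at 99.6 to 99.9. Of 49 genes of the mast cell lists with further probes, the dimmest lay more than 25 percentile points below the brightest in 23 and closer in 26. The other probe lay at a mean of 64.9 for Ctsd (99.7 by its brightest) and 71.8 for Cma1 (98.2), but at 91.4 for Mcpt4 (97.0) and 92.4 for Gata2 (95.6). It lay at 58.5 for Akt1 (94.9), 57.5 for Mki67 (94.9) and 42.4 for Runx1 (90.4). The 2 others of Il1rl1 (84.0) lay at 13.5 and 71.6. Over RefSeq genes with several probes, the first pair by probe name correlated at Spearman 0.243, 0.221 and 0.212 within the 3 arrays (5304, 5305 and 5305 genes), with a median difference of 21.7, 22.3 and 22.6 percentile points. Genes are not independent replicates, so these values describe the arrays only. The brightest probe of a gene may also bind other transcripts, which was not tested, so each percentile describes that probe rather than the gene.

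Ranks of the same probe agreed far better between cultures. Spearman correlations across probes were 0.769 for cultures 1 and 2, 0.765 for 1 and 3 and 0.764 for 2 and 3 (41169, 41169 and 41172 probes). Among probes well above background in every culture they were 0.673, 0.711 and 0.681. The WT cultures did not rank more like each other than like the p85α−/− cultures ranked in the same way. WT and p85α−/− channels that shared an array had 0.789, 0.806 and 0.775, and those on separate arrays had 0.736 to 0.808. No dye swap was made, so dye and genotype cannot be told apart in these values.

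The 500 brightest genes overlapped by 249 between cultures 1 and 2 (49.8%), 335 between 1 and 3 (67.0%) and 236 between 2 and 3 (47.2%). In all 3 lists 203 were shared (40.6%). Culture 2 thus stood apart in its brightest genes, though not in the rank correlation over all probes. With 100 genes a list, 47, 67 and 39 were shared by the same pairs.

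The spread between cultures was larger than that between spots. For 245 probes printed 10 times on each array, the median SD between spots was 0.12, 0.10 and 0.11 on the log2 scale. The median SD of their means between cultures was 0.72 after centering each array on its median. In percentile points this was 1.24, 1.28 and 1.18 between spots and 6.67 between cultures. Spots of 1 array share their cDNA, so they carry neither the difference between mice nor that between amplifications, and these could not be told apart.

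**Figure D3:**
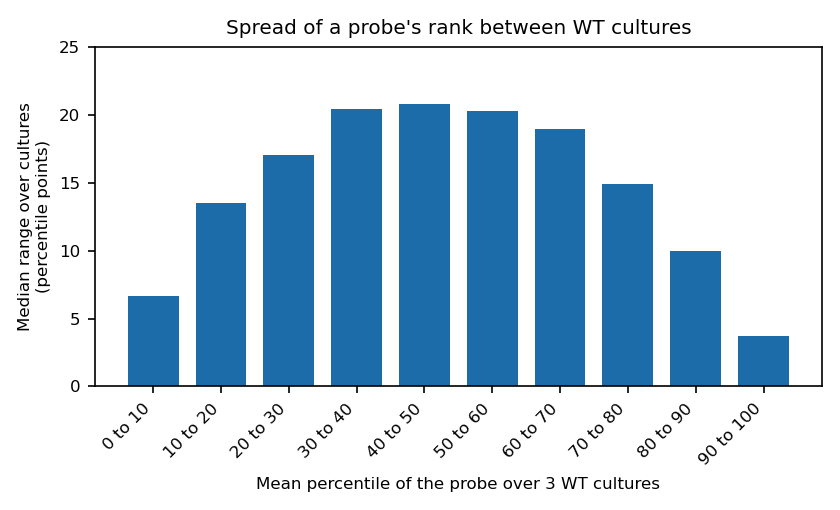
Median range of a probe's percentile over 3 WT cultures (y axis, percentile points) for probes grouped by mean percentile (x axis, 10 points a bar). Bars reach 20.8 for means of 40 to 50 and 3.72 for means of 90 to 100, and a mean near either end leaves less room for a range.

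Over all probes the median range between cultures was 14.3 percentile points. It was under 10 points for 34.5% of probes and over 50 for 7.74%. Among RefSeq genes, 25.1% ranged over more than 25 points, beside 17.1% of the mast cell lists (20 of 117) and 19.2% of the other lists (28 of 146). The widest of the mast cell lists, picked after seeing the values, was Ptger3, a prostaglandin E2 receptor, at 6.44, 99.4 and 8.46. Il6 was at 28.9, 84.1 and 11.8, and Areg at 86.8, 12.5 and 54.6. These probes of Ptger3 and Il6 were well above background only in culture 2, and another probe of Ptger3 was so in cultures 1 and 2.

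Some probes were bright in 1 culture and not well above background in another. At or above the 90th percentile there were 6998 probes in any culture, of which 2042 were so in all 3 (29.2%). Another 376 (5.37%) were not well above background in at least 1 other culture. This count was 65 with culture 2 left out, 142 without culture 1 and 297 without culture 3. By culture, 26, 69 and 27 probes were bright there and not well above background in both others, which gave 14, 47 and 16 genes by their brightest probe. Culture 2 again held the most.

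The accessions of only 4, 8 and 4 of these genes were found in the RefSeq table. The highest in culture 1 were AK082313 (94.6, 22.1 and 3.33), Serpina3n, an inhibitor of serine proteases (94.5, 13.5 and 9.78), AK050631, Calu, 4932441K18Rik, 5730460C07Rik, AK029654 and C030032O16Rik. In culture 2 they were ENSMUST00000054059 (15.5, 99.4 and 12.3), Ptger3, Rbmy (2.78, 98.8 and 3.15), 4632419I22Rik, 9930033D15Rik, A130054J05Rik, Casp9 and AK029919. Casp9, which starts the intrinsic death pathway, was at 10.9, 98.0 and 0.923. In culture 3 they were AK084172 (17.7, 27.2 and 96.3), C230072F16Rik, Olfr51 (25.1, 24.9 and 94.4), AK040026, AK081338, 4930556A17Rik, AK078584 and 1700054O19Rik. An olfactory receptor gene was thus among them. Ranks in a single culture were not tested against other mice.

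The promoters of the mast cell markers and granule genes were searched for the letters AGATAA and TGATAA, which GATA factors are known to bind, on both strands. The search was added after seeing that Gata2 was bright. RefSeq promoters (GRCm38.p6, 250 bases before the first listed start) were found for 19 of the 23 genes. Of these, 7 (36.8%) held AGATAA or TGATAA, beside 17.0% of 27025 promoters in the table. Olfactory receptor promoters held them in 39.5% of 764, with a median GC content of 33.6% against 48.8% for the mast cell genes and 52.0% for all, and the part of base composition in this share was not tested. Matches were seen in Cpa3, Fcer1a, Ms4a2, Mcpt1, Mcpt4, Slc18a2 and Tpsg1. None was seen in Cd63, Cma1, Ctsd, Ctsg, Gata2, Gzmb, Hdc, Kit, Mcpt9, Ndst2, Srgn or Tph1. Of the genes with a promoter that were brighter than Cpa3 by mean percentile, Mcpt4 held a match, while Ctsd, Cma1, Srgn and Gata2 did not. The promoters of the bright genes Cpa3 and Mcpt4 and of both receptor chains, the brighter Fcer1a and the dim Ms4a2, are shown with the matched letters in capitals, 5′ to 3′ on the gene's strand (minus in each).
Cpa3, chr3:20242182-20242431: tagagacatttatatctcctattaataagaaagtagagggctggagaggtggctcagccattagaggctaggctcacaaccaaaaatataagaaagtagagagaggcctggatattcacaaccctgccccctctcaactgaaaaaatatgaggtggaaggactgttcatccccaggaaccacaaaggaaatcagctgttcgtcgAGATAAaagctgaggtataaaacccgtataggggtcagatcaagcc
Mcpt4, chr14:56062311-56062560: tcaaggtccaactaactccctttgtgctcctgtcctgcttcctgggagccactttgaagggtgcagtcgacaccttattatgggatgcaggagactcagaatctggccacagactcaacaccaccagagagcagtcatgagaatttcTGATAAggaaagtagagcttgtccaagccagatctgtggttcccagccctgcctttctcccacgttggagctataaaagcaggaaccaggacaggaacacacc
Fcer1a, chr1:173227230-173227479: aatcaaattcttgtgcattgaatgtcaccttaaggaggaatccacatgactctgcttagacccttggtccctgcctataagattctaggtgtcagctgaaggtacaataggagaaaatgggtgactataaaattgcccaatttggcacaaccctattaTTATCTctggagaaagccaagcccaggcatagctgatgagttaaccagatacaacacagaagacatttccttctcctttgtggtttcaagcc
Ms4a2, chr19:11623720-11623969: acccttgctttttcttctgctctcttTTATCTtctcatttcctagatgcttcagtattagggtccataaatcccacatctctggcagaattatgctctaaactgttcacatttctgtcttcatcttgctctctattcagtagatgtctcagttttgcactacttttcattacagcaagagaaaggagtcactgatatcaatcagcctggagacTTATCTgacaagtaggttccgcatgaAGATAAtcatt
The match lay 46 bases before the start in Cpa3, 103 before it in Mcpt4 and 92 before it in Fcer1a. Ms4a2 held 3 matches, more than any other promoter of the 19, although its probe was the dimmest of the markers. A match of these letters is a description of the sequence and not a measured site.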

How the data were processed

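Per the file headers, the authors' scanner files were made with Agilent Feature Extraction 9.5.1.1. The deposited intensity values of each spot are its mean brightness, its local background and a processed signal corrected for background and dye, next to other flags that the authors' software set for outlier spots and for spots well above background (over 13 times the background SD). Replicates are numbered in the labels, and the authors' methods describe cultures from 3 independent WT mice.

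Green processed signals of non-control spots without outlier flags were averaged by probe and ranked within each array. Of 41174 probes, 41168 had a value on every array. A probe was called when more than 50% of its kept spots were flagged well above background. Genes were represented by the probe with the highest mean log2 signal. Accessions of 22951 probes (55.7%) were found in a RefSeq table (GRCm38.p6), used for names only. Named genes were the 5 markers, list members at the top or bottom of each list or for which it is known, the 25 brightest genes, and the 8 highest per culture among genes bright only there. The members and lists were chosen with earlier results of these data known, and S6 kinases were taken out of the ribosomal list and 1 globin name added after its values were seen. Lif, Ear2, Cebpe, Ly6g, Hbb-b2, Gapdh and Bcl2a1a were not analysed here, and some list members are not reported here. Python 3.11.15 (pandas 2.3.3, numpy 2.4.6, scipy 1.17.1) and R 4.3.3 with limma 3.58.1 (normexp, offset 50, as an alternative) were used, after the ranking steps were tested on simulated data. No group was compared, so no p-values were computed, and the number of arrays (3) limits the precision.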

Additional observations from a re-analysis of the deposited data

How the results depend on the processing

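No paired analysis was possible because 1 group of cultures was described and no test was run. The mean Spearman correlation over the 3 pairs (0.766) was 0.759 with normexp on the mean signal without dye normalization, which changes background and dye correction at once, and 0.688 over probes well above background in every culture. It ranged from 0.764 to 0.769 when each culture was left out. The share of probes well above background in every culture (63.2%) was 79.8% under the weaker call of a signal significantly above background, and 63.6% to 69.3% with a culture left out. The share of the 500 brightest genes common to the cultures (40.6%) was 47.2% to 67.0% with a culture left out, highest without culture 2. Probes bright in 1 culture and not well above background in another (376) were 1018 from the 80th percentile, 104 from the 95th and 125 under the weaker call, and 65 to 297 with a culture left out, fewest without culture 2. Leaving out a culture could only raise the share of probes and lower this count, so those directions were set in advance. The shares of genes with a culture left out are nearly the pairwise overlaps given above, so they add little to them. By the olfactory mark, added after seeing the data, 22 mast cell and 10 other genes passed in place of 102 and 121, and all 26 single lists fell by over 1.5 times. With every probe of a gene required, 5 of the 26 lists fell as far, namely KIT signalling (18 to 11), T cell and B cell (11 to 7 each), stem and progenitor (7 to 4) and stromal and endothelial (10 to 3), while the RefSeq share fell from 82.1% to 64.2%. Marker percentiles moved by less than the SD over cultures under each alternative. With outlier spots kept, or with the background-subtracted signal before dye normalization (added after seeing the data), no value moved beyond its SD and no count by over 1.5 times. The causes of these moves were not tested. Dim signals limit the low ranks, where the median background-subtracted signal of 2 arrays was close to the local background.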
